A study of Mus musculus with 30 samples.

Results

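Type I interferon stimulated genes were followed through the salivary gland of NOD.H-2h4 mice after blockade of CD40L. The group was a list of 35 genes, each represented by the probe set that named only that gene and had the highest mean over all arrays. Of these, 33 had such a probe set, among 18193 genes that did, and 32 were tested. Mx1 lay above the median of its array in only 2 of the 30 arrays and was left untested. Isg15, whose probe set names several genes, and Ifi44 were not analysed here.

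Female NOD.H-2h4 mice, a strain prone to autoimmune inflammation of the salivary gland, received 1 intraperitoneal antibody injection of 20 mg/kg at an age of 4 weeks. The antibody was either anti-CD40L, which blocks the T cell ligand of CD40, or a human IgG1 isotype control. Whole glands were collected at week 8, 16 or 24, giving 6 groups of 5 arrays: control and anti-CD40L at each age. Every mouse thus received an antibody injection, and uninjected mice were not analysed here. The labels call the arrays of a group biological replicates without saying that each came from a separate mouse, so p values measure only the spread between these arrays. Whole gland mixes secretory, duct, stromal and immune cells, and in such bulk RNA fewer cells of a type and less RNA per cell cannot be told apart.

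Type I interferons are secreted proteins, made when a cell senses foreign or misplaced nucleic acid, that bind a receptor present on nearly all cells. Its signal reaches the nucleus through factors that include STAT2 and IRF9, which act at a DNA element in front of the stimulated genes. The products of these genes sense viral RNA, block its translation, restrict viral budding and adjust the signal itself. A raised level of such genes, often called an interferon signature, is known from the salivary glands and blood of people with Sjögren's disease.

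The element at which STAT2 and IRF9 act was looked for in front of the listed genes, because it is the element through which such genes are known to be switched on. The core of this interferon-stimulated response element, GAAA followed by any 2 bases and GAAA again, was searched on both strands, in the 250 bases before each RefSeq start site of build GRCm38.p6. Of the 25 listed genes with such a window, 9 (36.0%) held at least 1 match, against 936 of 27025 genes (3.46%), and 5 (20.0%) held 2 or more, against 0.211% of all genes. Overlapping matches were counted, and a match is a run of letters, not a tested binding site. The stretches of 6 genes described below are given 5′ to 3′ on the gene's strand, with every match in capitals; a match on the other strand appears as runs of TTTC. The stretch of Ifit1 lies at chr19:34640765-34640833 (plus strand), Ifit3 at chr19:34583353-34583436 (plus strand), Oas1a at chr5:120907526-120907565 (minus strand), Bst2 at chr8:71537567-71537622 (minus strand), Rsad2 at chr12:26456543-26456592 (minus strand) and Stat2 at chr10:128270256-128270305 (plus strand).
Ifit1: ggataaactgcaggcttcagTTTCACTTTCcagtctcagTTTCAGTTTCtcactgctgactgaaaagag
Ifit3: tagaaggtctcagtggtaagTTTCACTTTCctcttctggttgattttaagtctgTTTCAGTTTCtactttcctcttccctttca
Oas1a: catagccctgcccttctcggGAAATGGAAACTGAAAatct
Bst2: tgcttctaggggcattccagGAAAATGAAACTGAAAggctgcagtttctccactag
Rsad2: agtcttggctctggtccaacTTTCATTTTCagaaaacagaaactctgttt
Stat2: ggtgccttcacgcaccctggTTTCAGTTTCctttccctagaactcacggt
In Oas1a the 2 matches overlap and are followed by 4 bases before the annotated start, and in Bst2 they overlap as well. Ifit1 and Ifit3 each hold 2 separate matches on the other strand, and Rsad2 and Stat2 hold 1. The other 3 genes with a match were Isg15, Oas3 and Trim30a. Oasl2, Irf7, Irf9, Samd9l, Ddx58, Adar and Dtx3l have a window in the table and no match in it.

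The values are log2 intensities, so a difference of 1 is a 2-fold difference, and the level of 1 gene's probe set cannot be set against that of another. Array medians lay between 5.487 and 5.537, and the number of arrays limits the precision. The mean of 7 acinar genes of the salivary gland was between 12.19 and 13.01 in all 30 arrays, while Amy1, the amylase of the parotid, ranged from 6.58 to 13.7. The 3′ minus 5′ difference of control transcripts, which increases as RNA degrades, was 0.36 to 0.86 in week 8 controls, 0.29 to 0.61 in week 24 controls and 0.16 to 0.25 at week 24 after anti-CD40L. The median correlation of an array with the others was 0.979 to 0.987 in 25 arrays and 0.953 to 0.972 in 5: control week 8 replicates 3 and 4, anti-CD40L week 8 replicates 1 and 3, and control week 24 replicate 1. Counts that moved by more than 1.5 times without these 5 arrays are given with both values.

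The interferon stimulated genes varied widely between arrays of the same group, and the same arrays were high in many of them at once. The residual SD within groups was 0.373 at the median of the 32 genes tested, against 0.222 at the median of all 12998, and 31 of the 32 were above that median of all genes. Within a group of 5, 2 arrays often stood out together. At week 16 after anti-CD40L, replicates 1 and 4 were the 2 highest arrays in 30 of 33 genes. At week 24 in controls this held for replicates 2 and 5 in 26 of 33 genes, and at week 16 in controls for replicates 1 and 4 in 23. After anti-CD40L at week 24, replicates 2 and 5 were the 2 highest in 20 of 33 genes. At week 8 a single array of each treatment stood out: control replicate 3 was highest in 24 of 33 genes and anti-CD40L replicate 5 in 22.

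**Figure D1:**
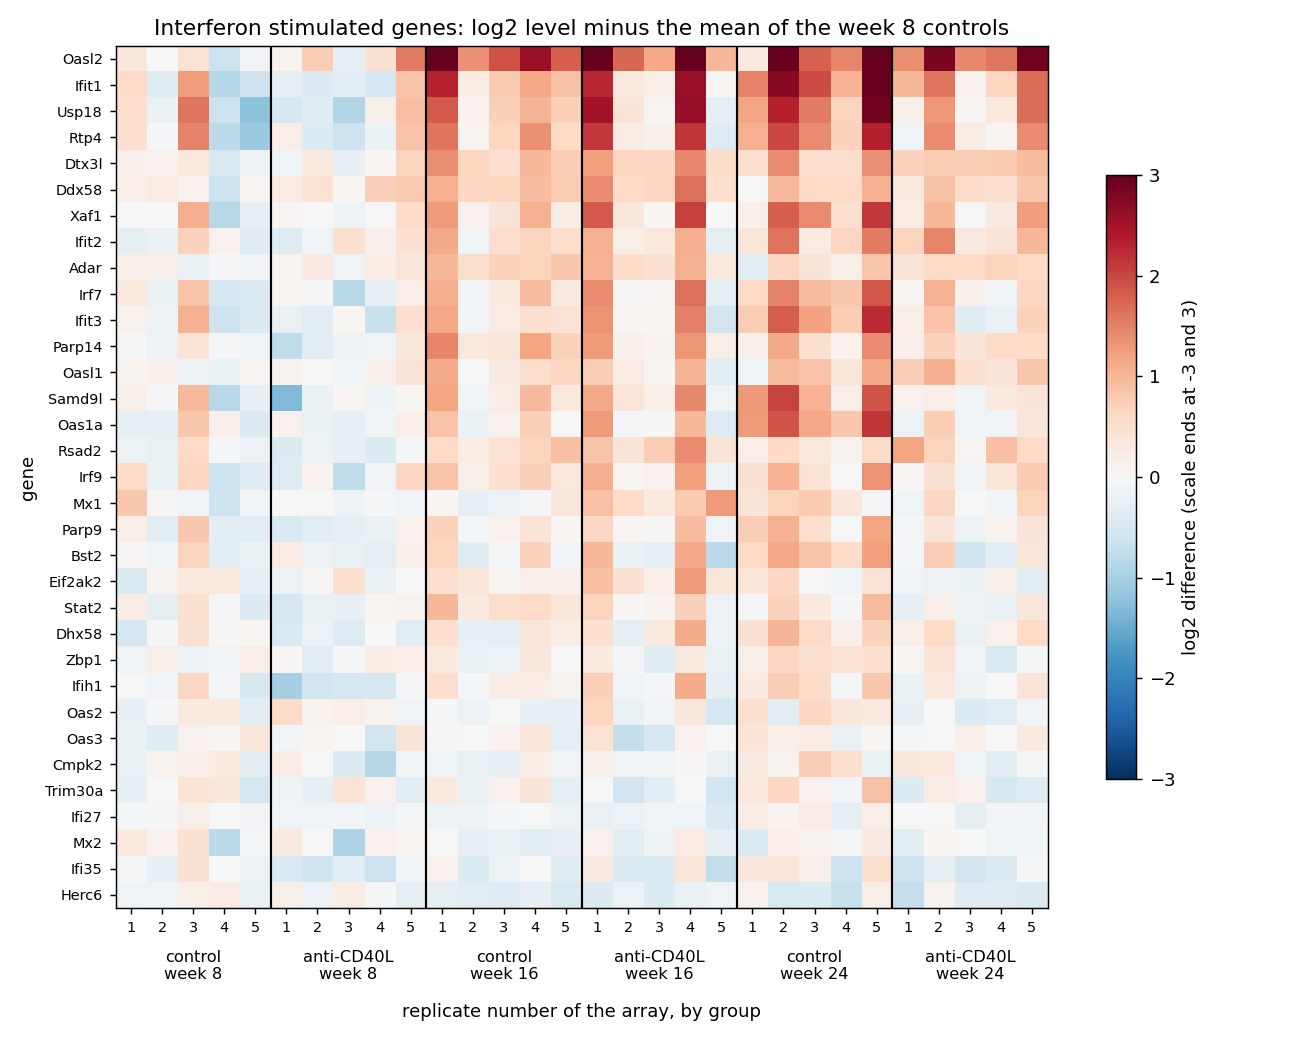
Log2 level of each of the 33 genes (rows) in each of the 30 arrays (columns, by group and replicate number) minus the mean of the 5 control arrays at week 8; red is higher, blue lower, and the colour scale ends at -3 and 3. Most rows are redder in replicates 1 and 4 than in the other arrays of both week 16 groups, and in replicates 2 and 5 of the week 24 controls.

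Averaged over the 33 genes, the log2 level in control glands was 6.99, 6.84, 7.45, 6.67 and 6.65 at week 8 in the order of replicates 1 to 5. It was 7.76, 6.97, 7.18, 7.51 and 7.21 in controls at week 16 and 7.35, 7.99, 7.59, 7.21 and 8.11 at week 24. After anti-CD40L the mean level was 6.76, 6.82, 6.72, 6.82 and 7.19 at week 8, 7.92, 7.04, 7.02, 8.06 and 6.83 at week 16, and 7.06, 7.56, 6.96, 7.06 and 7.49 at week 24. The groups overlapped at each age. The highest array of all was control week 24 replicate 5, followed by anti-CD40L week 16 replicate 4.

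The high arrays differed in what else they carried. In control week 16 replicates 1 and 4 the mean of 11 B cell genes was 5.87 and 6.19, against 5.17 to 5.31 in the other 3, and the mean of 12 T cell genes was 6.21 and 6.33, against 5.31 to 5.45. The mean of 21 interferon gamma response genes, which answer the interferon of T and NK cells, was 7.91 and 7.76 in these arrays and 6.38 to 6.61 in the others. Replicates 1 and 4 of anti-CD40L at week 16 had B cell means of 5.16 and 5.07, beside 5.09 to 5.34 in the other 3 arrays. Their T cell means, 5.36 and 5.25, lay beside 5.28 to 5.39. Their interferon gamma response level was 6.78 and 6.76, against 6.18 to 6.40. High levels of the type I genes were thus seen both in glands with raised lymphocyte transcripts and in glands without. Amy1 was 12.38 and 13.45 in the 2 high control arrays of week 16 and 7.27 to 8.95 in the other 3, whereas in the treated group it was 7.34 and 12.21 in the high arrays and 7.94 to 12.41 in the others.

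**Figure D2:**
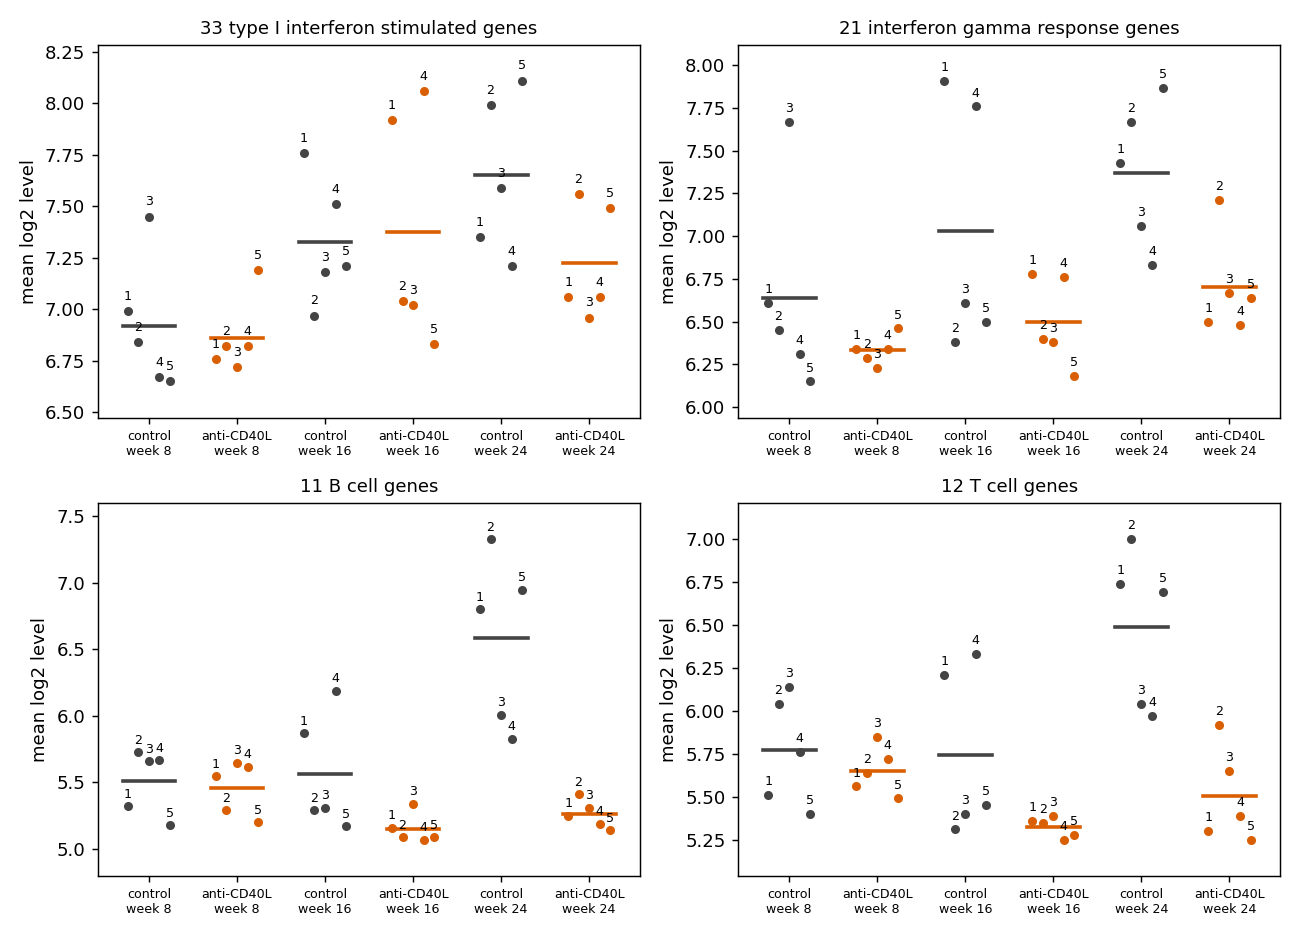
Mean log2 level of 4 gene lists in every array, with replicate numbers beside the points and the group mean as a line; controls are dark grey and anti-CD40L orange. At week 16, anti-CD40L replicates 1 and 4 reach 7.92 and 8.06 in the type I interferon panel while their B cell and T cell means stay at the level of their group.

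The question at week 24 was what differed, at the oldest age studied, after a single early dose of anti-CD40L. Most of the interferon stimulated genes had lower means after anti-CD40L, and 3 passed the test: Oas1a, an oligoadenylate synthetase that detects viral RNA and switches on RNase L, Samd9l, a cytoplasmic restriction factor, and Zbp1, a sensor of Z-form nucleic acid that can start necroptosis. They fell 2.48-fold, 2.16-fold and 1.39-fold. These are 9.38% of the 32 genes tested, where 3.49% of all 12998 genes fell and 9.46% changed in either direction. None rose. Of the 32, 29 lay below 0, against 45.8% of all genes, and the median difference was -0.38, against 0.03 for all genes. A further 9 had an unadjusted p under 0.05 in limma without passing, 12 in all (37.5%, against 29.6% of all genes).

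Controls had Oas1a levels of 7.18, 7.17, 8.29, 7.61 and 7.01 at week 8, 8.31, 7.26, 7.57, 8.16 and 7.45 at week 16, and 8.73, 9.34, 8.61, 8.26 and 9.60 at week 24. Treated glands had Oas1a levels of 7.59, 7.26, 7.21, 7.36 and 7.64 at week 8, 8.72, 7.40, 7.49, 8.44 and 7.07 at week 16, and 7.28, 8.19, 7.34, 7.36 and 7.81 at week 24. At week 24 every treated array lay below every control, which among the 32 genes tested held for Oas1a alone in this comparison (1.76% of all genes did so). The difference was -1.31 ± 0.29 (adjusted p = 0.00981), on the log2 scale with its standard error and 5 arrays a group, as for all differences below. It kept its call without any 1 of the 30 arrays (highest adjusted p = 0.0354, without anti-CD40L week 24 replicate 4).

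Controls had Samd9l levels of 7.26, 7.02, 8.07, 6.25 and 6.85 at week 8, 8.28, 6.96, 7.31, 8.07 and 7.41 at week 16, and 8.38, 9.12, 8.14, 7.29 and 8.98 at week 24. Treated glands had Samd9l levels of 5.77, 6.89, 7.14, 6.93 and 7.16 at week 8, 8.23, 7.46, 7.26, 8.52 and 6.97 at week 16, and 7.21, 7.28, 7.01, 7.38 and 7.47 at week 24. Treated arrays at week 24 were tightly grouped, at 7.01 to 7.47, below 4 of the 5 controls, and the remaining control, replicate 4, was at 7.29. The difference was -1.11 ± 0.35 (adjusted p = 0.0435). The call was lost without any 1 of 9 arrays, with a highest adjusted p of 0.117 without control week 24 replicate 1.

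Controls had Zbp1 levels of 5.90, 6.14, 5.79, 5.86 and 6.18 at week 8, 6.30, 5.75, 5.79, 6.32 and 5.99 at week 16, and 6.14, 6.62, 6.48, 6.41 and 6.47 at week 24. Treated glands had Zbp1 levels of 6, 5.65, 5.94, 6.20 and 6.18 at week 8, 6.27, 5.91, 5.60, 6.26 and 5.77 at week 16, and 6.04, 6.38, 5.88, 5.52 and 5.93 at week 24. The difference of -0.48 ± 0.15 (adjusted p = 0.048) came with overlap between the groups, since anti-CD40L replicate 2 was at 6.38 and the other 4 lay below all controls. Another probe set of Zbp1, slightly dimmer, gave -1.24. The call of Zbp1 was lost without any 1 of 15 arrays (highest adjusted p = 0.146, without anti-CD40L week 24 replicate 4).

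Ifit1 and Ifit3, members of a family that binds viral RNA and blocks its translation, had differences as large without passing. Controls had Ifit3 levels of 7.23, 6.94, 8.16, 6.48 and 6.70 at week 8, 8.26, 7.03, 7.34, 7.61 and 7.53 at week 16, and 7.86, 8.93, 8.32, 7.86 and 9.34 at week 24. Treated glands had Ifit3 levels of 6.87, 6.77, 7.16, 6.44 and 7.60 at week 8, 8.46, 7.16, 7.16, 8.62 and 6.54 at week 16, and 7.31, 7.96, 6.74, 6.90 and 7.80 at week 24. The week 24 difference was -1.12 ± 0.37 (adjusted p = 0.0529), and 4 of 5 treated arrays lay below all controls. Controls had Ifit1 levels of 6.51, 5.55, 7.16, 5.07 and 5.29 at week 8, 8.23, 6.13, 6.71, 7.07 and 6.79 at week 16, and 7.40, 8.65, 7.87, 6.97 and 9.13 at week 24. Treated glands had Ifit1 levels of 5.64, 5.50, 5.61, 5.40 and 6.78 at week 8, 8.18, 6.20, 6.09, 8.51 and 5.98 at week 16, and 6.92, 7.52, 6.04, 6.57 and 7.59 at week 24. Its week 24 difference was -1.07 ± 0.51 (adjusted p = 0.155), and the arrays of both groups spread over more than 1 log2 unit. Ifit2 gave -0.13 ± 0.30 (adjusted p = 0.807).

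Among the factors that carry the signal, Irf7, the transcription factor that amplifies interferon production, gave -0.78 ± 0.34 (adjusted p = 0.126) at week 24. Stat2 and Irf9, which carry the signal to the DNA, gave -0.38 ± 0.20 (adjusted p = 0.211) and -0.34 ± 0.30 (adjusted p = 0.457). Usp18, which removes ISG15 from proteins and dampens the receptor, gave -1.02 ± 0.55 (adjusted p = 0.214). None of the 4 passed. Bst2, the tetherin that holds budding virus at the membrane, gave -0.86 ± 0.30 (adjusted p = 0.0645), and Rtp4, a chaperone of membrane receptors, gave -0.90 ± 0.49 (adjusted p = 0.219). The 3 genes above 0 were Rsad2, the antiviral enzyme viperin, at 0.33 ± 0.19 (adjusted p = 0.242), Adar, which edits adenosine in RNA, at 0.20 ± 0.16 (adjusted p = 0.412), and Oasl1 at 0.07 ± 0.23 (adjusted p = 0.864). For Rsad2, 4 of 5 treated arrays were above every control and 1 was below every control. The remaining 17 genes had week 24 differences between -0.65 (Xaf1) and -0.02 (Ddx58).

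**Figure D3:**
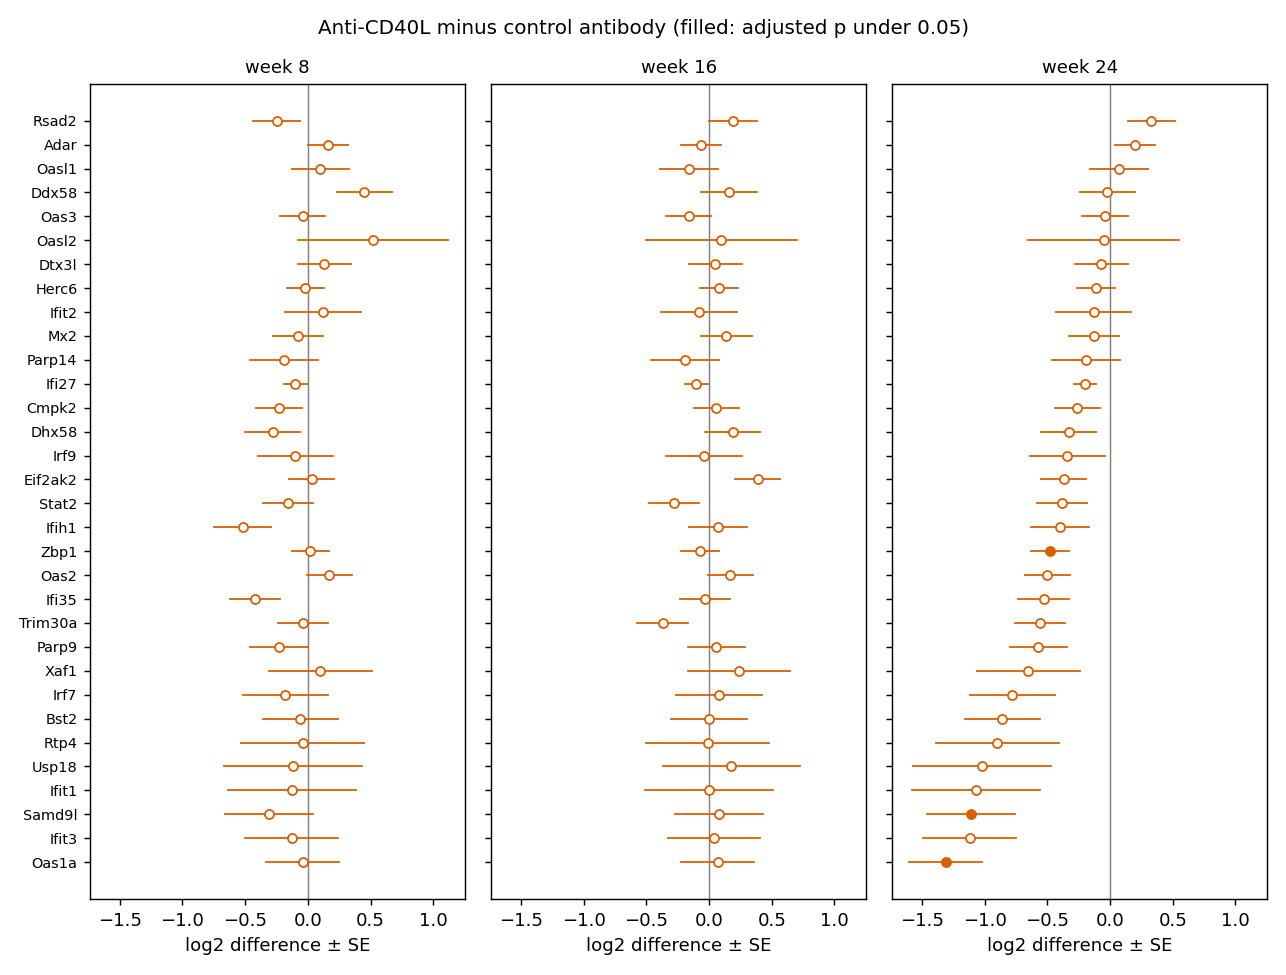
Difference in log2 level, anti-CD40L minus control, with its standard error for each of the 32 genes tested at weeks 8, 16 and 24; a filled point has an adjusted p under 0.05 in limma. At week 24 the points run from -1.31 for Oas1a to 0.33 for Rsad2 and 29 of 32 lie left of 0, while at weeks 8 and 16 they lie on both sides of 0.

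The week 24 count depended on single arrays and on settings. It was 1 without each of control week 24 replicates 1, 3 and 5 and each of anti-CD40L week 24 replicates 1, 3, 4 and 5, 5 without anti-CD40L week 24 replicate 2 and 9 without control week 24 replicate 4. The number of all genes called moved too, from 1229 to 237 without control week 24 replicate 1 and to 1933 without control week 24 replicate 4. The median difference of the listed genes stayed between -0.48 and -0.30 without any 1 array. With the 3′ minus 5′ difference as a covariate 0 listed genes passed and 23 of all genes did; the difference of Oas1a was then -1.20 (adjusted p = 0.159).

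Transcripts of some immune cell types were lower in the same comparison. Of 8 B cell genes tested 7 fell, of 9 T cell genes 6 and of 8 plasma cell genes 5. Fewer fell in other lists: 2 of 8 cytotoxic T and NK cell genes, 1 of 15 macrophage and dendritic cell genes (6.67%) and 0 of 6 neutrophil genes. Of all genes 3.49% fell. The mean B cell level was 5.83 to 7.33 in controls and 5.14 to 5.41 after anti-CD40L, and the mean T cell level 5.97 to 7 and 5.25 to 5.92. Genes of the interferon gamma response were lower too: 3 of 16 fell, Psmb8, Psmb9 and Ciita, and their mean level was 6.83 to 7.87 in controls and 6.48 to 7.21 after anti-CD40L. Of 8 genes marking plasmacytoid dendritic cells, which can make type I interferon in large amounts, 3 fell: Spib (-1.19 ± 0.30, adjusted p = 0.0182), Ly6d (-0.92 ± 0.20, adjusted p = 0.00833) and Irf8 (-0.48 ± 0.12, adjusted p = 0.0167). B cells also express these 3, so by them the cell types cannot be told apart. Over the 8 genes, 6 lay below 0, with a median of -0.16 and a range of -1.19 to 0.42. Siglech, a surface lectin of plasmacytoid dendritic cells that is named here after its value was seen, was 1 of the 6, at -0.12 ± 0.14 (adjusted p = 0.573). Plasma cell genes had a mean of 8.46 to 8.76 in controls and 7.16 to 8.02 after anti-CD40L, and muscle genes of 4.87 to 6.7 and 4.82 to 5.77. The part of these cells, and of RNA quality, in the week 24 result was not tested further.

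At weeks 8 and 16 the question was whether the antibody had changed these genes earlier. No listed gene passed at either age. At week 8, 0.0692% of all genes passed and 3 listed genes (9.38%) had an unadjusted limma p under 0.05, against 15.5% of all genes. At week 16 1.88% of all genes passed, and 1 listed gene (3.12%) had an unadjusted limma p under 0.05, against 14.7%. In none of the 32 genes tested were the 5 arrays of the treatments fully separated, as they were, higher or lower after anti-CD40L, in 0.323% and 0.792% of all genes at week 8 and 6.03% and 3.02% at week 16. The median difference of the 32 genes was -0.07 at week 8 and 0.05 at week 16, against 0.01 and 0.02 for all genes. Without 1 array the week 16 median ran from -0.15 (without anti-CD40L week 16 replicate 4) to 0.20 (without replicate 5 of the same group). The spread leaves room for sizeable differences: the 95% interval for Ifit1 at week 16 was -1.03 to 1.04, and for Usp18 -0.95 to 1.31.

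The largest week 8 differences among the 32 were for Oasl2, Ifih1, Ddx58 and Ifi35. Ifih1, the RNA sensor MDA5, gave -0.52 ± 0.23 (adjusted p = 0.286), and Ifi35 -0.42 ± 0.20 (adjusted p = 0.311). Each was below all controls in 4 of 5 treated arrays. Controls had Ifi35 levels of 10.69, 10.48, 11.19, 10.71 and 10.56 at week 8, 10.86, 10.31, 10.54, 10.72 and 10.37 at week 16, and 11.06, 11.10, 10.89, 10.11 and 11.24 at week 24. Treated glands had Ifi35 levels of 10.26, 10.13, 10.42, 10.08 and 10.64 at week 8, 10.99, 10.29, 10.31, 11.08 and 10 at week 16, and 10.11, 10.44, 10.18, 10.32 and 10.70 at week 24. At week 8 only treated replicate 5 overlapped the controls, lying above control replicates 2 and 5. Ddx58, the RNA sensor RIG-I, gave 0.45 ± 0.22 (adjusted p = 0.319) and Oasl2 0.52 ± 0.60 (adjusted p = 0.706). For Ddx58 another probe set gave -0.46 at this age.

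At week 16 the largest differences among the 32 genes tested were for Eif2ak2, Trim30a, Stat2 and Xaf1. Eif2ak2, the kinase PKR that stops translation on viral RNA, gave 0.39 ± 0.18 (adjusted p = 0.321). Controls had Eif2ak2 levels of 5.54, 6.12, 6.29, 6.32 and 5.77 at week 8, 6.52, 6.36, 6.08, 6.17 and 6.16 at week 16, and 6.37, 6.63, 6.01, 5.87 and 6.41 at week 24. Treated glands had Eif2ak2 levels of 5.84, 6.05, 6.48, 5.80 and 6.01 at week 8, 6.91, 6.46, 6.21, 7.28 and 6.37 at week 16, and 5.92, 5.84, 5.80, 6.19 and 5.68 at week 24. Only replicates 1 and 4 of the treated group lay above all controls at week 16. The untested Mx1 had means of 4.63 in controls and 5.40 after anti-CD40L at this age.

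Trim30a, a tripartite motif protein, gave -0.37 ± 0.20 (adjusted p = 0.413) at week 16 and -0.56 ± 0.20 (adjusted p = 0.0712) at week 24. Controls had Trim30a levels of 5.94, 6.21, 6.62, 6.54 and 5.70 at week 8, 6.51, 5.99, 6.34, 6.6 and 5.92 at week 16, and 6.53, 6.82, 6.32, 6.12 and 7.09 at week 24. Treated glands had Trim30a levels of 6.04, 5.95, 6.62, 6.33 and 5.87 at week 8, 6.18, 5.63, 5.86, 6.20 and 5.62 at week 16, and 5.79, 6.42, 6.33, 5.72 and 5.82 at week 24. Xaf1, a partner of the apoptosis inhibitor XIAP, gave 0.24 ± 0.41 (adjusted p = 0.866) at week 16. Controls had Xaf1 levels of 6.73, 6.75, 7.84, 5.90 and 6.49 at week 8, 8.02, 6.86, 7.14, 7.82 and 6.96 at week 16, and 6.90, 8.54, 8.15, 7.23 and 8.86 at week 24. Treated glands had Xaf1 levels of 6.82, 6.74, 6.59, 6.74 and 7.29 at week 8, 8.58, 7.09, 6.81, 8.79 and 6.72 at week 16, and 6.98, 7.73, 6.75, 7 and 8.00 at week 24. Its 2 highest arrays in each week 16 group were replicates 1 and 4.

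The change of the treatment effect between ages tests whether the week 24 difference exceeded the earlier one. No listed gene passed for week 24 against week 8 (0.00769% of all genes) or for week 16 against week 8 (0.123% of all genes higher and 0.0231% lower, 0.146% in all). In the second, unadjusted p was under 0.05 in limma for 0 listed genes, against 13.6% of all genes. In the first it was so for 4 listed genes (12.5%, against 5.84% of all genes). These were Oas1a at -1.27 ± 0.42 (adjusted p = 0.601), Oas2 at -0.68 ± 0.26 (adjusted p = 0.663), Zbp1 at -0.50 ± 0.22 (adjusted p = 0.801) and Rsad2 at 0.58 ± 0.27 (adjusted p = 0.835). The fall at week 24 was therefore not shown to differ from the difference at week 8, and weeks 16 and 24 were not compared in this way. The median over the 32 genes was -0.29 for week 24 against week 8, against 0.03 for all genes.

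From week 8 to week 16, control glands gained in several listed genes at an age when 46.5% of all genes changed in either direction. Of the 32, 7 rose (21.9%), fewer than the 28.4% of all genes that rose, and none fell. They were Oasl2, Dtx3l, Ddx58, Parp14, Adar, Rsad2 and Stat2, with rises of 1.47-fold to 4.84-fold. The median difference was 0.48, against 0.06 for all genes. In Oasl2, Ddx58, Adar and Dtx3l all 5 week 16 arrays lay above all week 8 arrays, as in 16.4% of all genes. Herc6, the mouse ligase of ISG15, had all week 16 arrays below week 8, as in 10.4% of all genes, at -0.34 ± 0.15 (adjusted p = 0.0573). Over this interval the 3′ minus 5′ difference went from between 0.36 and 0.86 to between 0.23 and 0.38, and with it as a covariate none of the 7 rises passed and the median was 0.23. The number of all genes called then went from 6046 to 620. Of 15 macrophage and dendritic cell genes 9 rose over the same interval, and of 8 plasma cell genes 6, whose part in the result was not tested.

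Oasl2, an oligoadenylate synthetase-like protein, had the largest rise. Controls had Oasl2 levels of 4.75, 4.40, 4.85, 3.77 and 4.32 at week 8, 8.13, 5.78, 6.33, 7.01 and 6.22 at week 16, and 4.71, 7.87, 6.18, 5.89 and 7.84 at week 24. Treated glands had Oasl2 levels of 4.52, 5.19, 4.13, 4.87 and 5.97 at week 8, 8.20, 6.15, 5.58, 8.65 and 5.41 at week 16, and 5.82, 7.24, 5.86, 5.99 and 7.32 at week 24. Each later group spread over more than 1 log2 unit, and control week 24 replicate 1 was at a week 8 level. The rise in controls was 2.28 ± 0.60 (adjusted p = 0.00367) at week 16 and 2.08 ± 0.60 (adjusted p = 0.0235) at week 24. It kept the week 16 call without any 1 array and lost the week 24 call without each of control week 8 replicate 4 and control week 24 replicates 2 and 5 (highest adjusted p = 0.0915).

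Dtx3l and Parp9 form a complex that attaches ubiquitin and ADP-ribose to chromatin, and Parp14 is a related ADP-ribosyltransferase. Controls had Dtx3l levels of 6.93, 6.90, 7.11, 6.33 and 6.64 at week 8, 8.18, 7.42, 7.29, 7.77 and 7.53 at week 16, and 7.26, 8.20, 7.29, 7.31 and 8.16 at week 24. Treated glands had Dtx3l levels of 6.65, 7.08, 6.53, 6.84 and 7.46 at week 8, 8.02, 7.43, 7.41, 8.22 and 7.33 at week 16, and 7.48, 7.54, 7.53, 7.57 and 7.73 at week 24. Week 8 controls lay below every older control. Dtx3l passed in all 4 age comparisons, with 0.85 ± 0.21 (adjusted p = 0.00267) and 0.86 ± 0.21 (adjusted p = 0.0106) in controls at weeks 16 and 24 and 0.77 ± 0.21 (adjusted p = 0.00804) and 0.66 ± 0.21 (adjusted p = 0.0285) after anti-CD40L. A second Dtx3l probe set gave 0.89, 0.93, 0.98 and 0.90 in the same order. The last call was lost without any 1 of 5 arrays, anti-CD40L week 8 replicates 1, 3 and 4 and week 24 replicates 4 and 5 (highest adjusted p = 0.093).

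Controls had Parp14 levels of 6.19, 6.08, 6.66, 6.22 and 6.13 at week 8, 7.72, 6.58, 6.61, 7.43 and 6.95 at week 16, and 6.40, 7.40, 6.74, 6.35 and 7.67 at week 24. Treated glands had Parp14 levels of 5.49, 5.95, 6.10, 6.16 and 6.6 at week 8, 7.53, 6.42, 6.36, 7.59 and 6.43 at week 16, and 6.40, 6.95, 6.64, 6.83 and 6.81 at week 24. It rose at week 16 by 0.80 ± 0.27 (adjusted p = 0.0185) in controls and 0.81 ± 0.27 (adjusted p = 0.0236) after anti-CD40L, led by replicates 1 and 4 in both groups. Without control week 16 replicate 1 the first gave adjusted p = 0.0689. The second was lost without each of anti-CD40L week 8 replicate 1 and week 16 replicates 1 and 4 (highest adjusted p = 0.0859).

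Controls had Parp9 levels of 8.38, 7.88, 8.99, 7.85 and 7.85 at week 8, 8.88, 8.13, 8.33, 8.61 and 8.26 at week 16, and 8.94, 9.25, 8.72, 8.19 and 9.38 at week 24. Treated glands had Parp9 levels of 7.73, 7.86, 7.89, 7.99 and 8.31 at week 8, 8.82, 8.27, 8.23, 9.11 and 8.08 at week 16, and 8.14, 8.58, 8.04, 8.30 and 8.57 at week 24. Parp9 passed only from week 8 to week 24 in controls, at 0.71 ± 0.23 (adjusted p = 0.0404), with 2 of 5 arrays above all of week 8. The call was lost without any 1 of 5 arrays (highest adjusted p = 0.124, without control week 8 replicate 4).

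Of the RNA sensors, Ddx58 rose in controls. Controls had Ddx58 levels of 7.61, 7.66, 7.54, 6.77 and 7.49 at week 8, 8.48, 8.04, 8.05, 8.33 and 8.17 at week 16, and 7.40, 8.38, 8.00, 8.01 and 8.48 at week 24. Treated glands had Ddx58 levels of 7.67, 7.84, 7.47, 8.14 and 8.20 at week 8, 8.84, 8.01, 8.05, 9.06 and 7.91 at week 16, and 7.71, 8.30, 7.97, 7.89 and 8.25 at week 24. The rise was 0.80 ± 0.22 (adjusted p = 0.00469) at week 16, kept without any 1 array. A dimmer probe set gave -0.32 and another 0.61, so its probe sets disagree. The median over them gives -0.32 (adjusted p = 0.0894).

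Adar and Rsad2 moved within narrower ranges. Controls had Adar levels of 7.70, 7.70, 7.30, 7.49 and 7.42 at week 8, 8.51, 8.06, 8.21, 8.19 and 8.34 at week 16, and 7.21, 8.17, 7.92, 7.69 and 8.36 at week 24. Treated glands had Adar levels of 7.61, 7.78, 7.41, 7.75 and 7.89 at week 8, 8.57, 8.07, 7.97, 8.59 and 7.83 at week 16, and 7.90, 8.09, 8.09, 8.18 and 8.12 at week 24. Week 16 controls were above all week 8 controls, a rise of 0.74 ± 0.16 (adjusted p = 0.000972) that no left-out array ended. The rise after anti-CD40L was 0.52 ± 0.16 (adjusted p = 0.0161), lost without each of anti-CD40L week 8 replicate 3 and week 16 replicates 1 and 4 (highest adjusted p = 0.0597). The other 2 probe sets of Adar gave 0.25 and 0.50 in controls and 0.24 and 0.21 after anti-CD40L.

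Controls had Rsad2 levels of 7.45, 7.37, 8.20, 7.54 and 7.42 at week 8, 8.20, 7.81, 8.03, 8.27 and 8.51 at week 16, and 7.79, 8.19, 7.91, 7.70 and 8.15 at week 24. Treated glands had Rsad2 levels of 7.18, 7.43, 7.35, 7.19 and 7.57 at week 8, 8.44, 7.99, 8.36, 9.01 and 7.99 at week 16, and 8.77, 8.27, 7.68, 8.51 and 8.20 at week 24. All older treated arrays lay above all week 8 treated arrays, at both ages. Rsad2 rose 2.02-fold by week 16 (1.01 ± 0.19 (adjusted p = 0.000519)) and 1.92-fold by week 24 (0.94 ± 0.19 (adjusted p = 0.0023)) after anti-CD40L, without losing either call when any 1 array or the 5 arrays of low correlation were left out. In controls it rose by 0.57 ± 0.19 (adjusted p = 0.0172) at week 16, lost without control week 16 replicate 5 (adjusted p = 0.057), and gave 0.36 ± 0.19 (adjusted p = 0.214) at week 24. The other 2 probe sets of Rsad2 also gave positive values in these 4 comparisons, 0.54 to 1.23.

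Stat2 rose by 0.55 ± 0.20 (adjusted p = 0.0291) in controls at week 16. Controls had Stat2 levels of 6.92, 6.40, 7.17, 6.66 and 6.28 at week 8, 7.68, 6.98, 7.21, 7.28 and 7.05 at week 16, and 6.64, 7.38, 6.97, 6.62 and 7.64 at week 24. Treated glands had Stat2 levels of 6.19, 6.47, 6.44, 6.77 and 6.78 at week 8, 7.35, 6.73, 6.80, 7.39 and 6.52 at week 16, and 6.45, 6.87, 6.52, 6.47 and 7.03 at week 24. The call was lost without each of control week 8 replicates 2, 4 and 5 and control week 16 replicate 1 (highest adjusted p = 0.0952). A second Stat2 probe set gave 1.09.

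**Figure D4:**
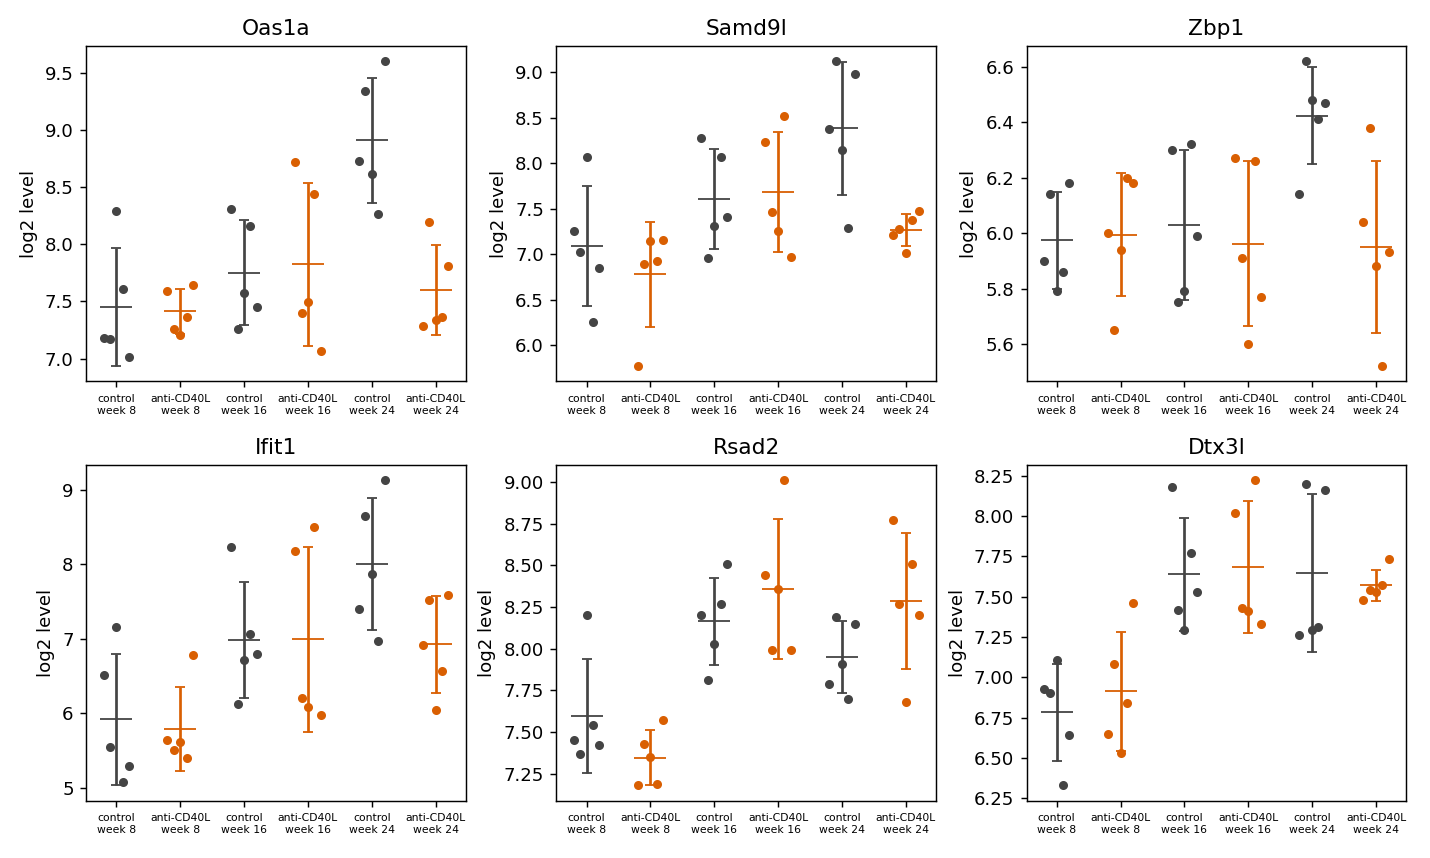
Log2 level in every array (points), with the group mean and SD, for 6 genes; each panel has its own axis, controls are dark grey and anti-CD40L orange. Oas1a at week 24 shows no overlap between treatments, Rsad2 after anti-CD40L shows none between week 8 and the later ages, and Ifit1 at week 16 splits into 2 high and 3 low arrays after anti-CD40L.

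From week 8 to week 24 in controls, 10 of the 32 listed genes rose (31.2%), against 8.49% of all genes, and none fell. Ifit1 rose 4.25-fold, Oasl2 4.23-fold, Usp18 3.31-fold, Rtp4 2.83-fold, Oas1a 2.74-fold, Ifit3 2.57-fold, Samd9l 2.46-fold, Irf7 2.22-fold, Dtx3l 1.82-fold and Parp9 1.63-fold. Of the 32, 31 lay above 0, against 57.2% of all genes. For 20 the unadjusted limma p was under 0.05 (62.5%, against 29.7% of all genes). The median was 0.64, against 0.05 for all genes. The exception was Herc6, at -0.24 ± 0.15 (adjusted p = 0.272). Only in Dtx3l were all week 24 arrays above all week 8 arrays (2.22% of all genes).

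Ifit1 rose by 2.09 ± 0.51 (adjusted p = 0.00913) and Oas1a by 1.45 ± 0.29 (adjusted p = 0.00305), and both kept the call without any 1 array. Ifit3 rose by 1.36 ± 0.37 (adjusted p = 0.0172) and Samd9l by 1.30 ± 0.35 (adjusted p = 0.0161). Ifit3 lost its call without each of control week 8 replicate 4 and control week 24 replicates 2 and 5, and Samd9l without each of the first 2 of these arrays. The highest adjusted p was 0.0633 and 0.0672, both without control week 8 replicate 4.

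Irf7 and Usp18 were among the 10 genes that rose. Controls had Irf7 levels of 6.91, 6.41, 7.47, 6.08 and 6.21 at week 8, 7.71, 6.50, 6.91, 7.56 and 6.89 at week 16, and 7.22, 8.11, 7.57, 7.43 and 8.48 at week 24. Treated glands had Irf7 levels of 6.69, 6.55, 5.79, 6.32 and 6.81 at week 8, 8.03, 6.66, 6.70, 8.26 and 6.32 at week 16, and 6.69, 7.67, 6.78, 6.53 and 7.24 at week 24. Irf7 rose by 1.15 ± 0.34 (adjusted p = 0.0284), with 3 of 5 week 24 arrays above all of week 8. Controls had Usp18 levels of 7.27, 6.57, 8.37, 6.12 and 5.54 at week 8, 8.62, 6.91, 7.5, 7.79 and 7.48 at week 16, and 7.95, 9.11, 8.31, 7.44 and 9.67 at week 24. Treated glands had Usp18 levels of 6.30, 6.41, 5.90, 6.96 and 7.68 at week 8, 9.26, 7.15, 6.86, 9.39 and 6.53 at week 16, and 6.95, 8.08, 6.83, 7.09 and 8.44 at week 24. Usp18 rose by 1.73 ± 0.55 (adjusted p = 0.0392); in both genes control week 8 replicate 3 was the highest of its group and reached into the later range. The calls of Irf7 and Usp18 were lost without any 1 of 5 and 6 arrays of these 2 groups (highest adjusted p = 0.0921 and 0.113, without control week 8 replicate 4).

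Controls had Rtp4 levels of 9.13, 8.58, 10.14, 7.86 and 7.54 at week 8, 10.26, 8.74, 9.29, 10.01 and 9.25 at week 16, and 9.71, 10.65, 10.06, 9.35 and 10.99 at week 24. Treated glands had Rtp4 levels of 8.84, 8.24, 8.03, 8.45 and 9.51 at week 8, 10.77, 8.88, 8.81, 10.79 and 8.26 at week 16, and 8.51, 10.06, 8.88, 8.72 and 10.07 at week 24. Rtp4 rose by 1.5 ± 0.49 (adjusted p = 0.045), the weakest of the 10 calls by adjusted p, lost without any 1 of 10 arrays (highest adjusted p = 0.14, without control week 8 replicate 4). Irf9 did not pass in any comparison. Controls had Irf9 levels of 7.87, 7.04, 7.93, 6.64 and 6.89 at week 8, 8.12, 7.46, 7.78, 7.99 and 7.59 at week 16, and 7.74, 8.32, 7.69, 7.26 and 8.62 at week 24. Treated glands had Irf9 levels of 6.88, 7.41, 6.51, 7.18 and 7.91 at week 8, 8.36, 7.36, 7.40, 8.50 and 7.12 at week 16, and 7.30, 7.74, 7.17, 7.64 and 8.06 at week 24. Its control differences from week 8 were 0.51 ± 0.30 (adjusted p = 0.154) at week 16 and 0.65 ± 0.30 (adjusted p = 0.144) at week 24.

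The week 24 control count was 3 without each of control week 8 replicate 4 and control week 24 replicate 2, 4 without control week 24 replicate 5, 6 without control week 8 replicate 2 and 18 without control week 24 replicate 1. The number of all genes called moved too, from 1624 to 721 without control week 24 replicate 2 and to 3228 without control week 24 replicate 1. When only the 10 arrays compared were fitted, 0 listed genes passed (41 of all genes), with Oas1a at adjusted p = 0.0678 and Ifit1 at 0.0795. With the 3′ minus 5′ difference as a covariate, 2 of the 10 calls were left, and the number of all genes called went from 1624 to 715. B cell and T cell genes rose over the same interval in controls, 6 of 8 and 4 of 9, as did 6 of 8 plasma cell genes. So did 7 of 15 macrophage and dendritic cell genes and 4 of 16 interferon gamma response genes. Fewer rose among cytotoxic T and NK cell genes (1 of 8) and neutrophil genes (0 of 6). Of all genes 8.49% rose. From week 8 to week 24 the mean B cell level in controls went from 5.18 to 5.73 up to 5.83 to 7.33. The part of these cells in the rise of the listed genes was not tested.

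After anti-CD40L, 9 of the 32 genes rose from week 8 to week 16 (28.1%, against 24.1% of all genes) and 2 from week 8 to week 24 (6.25%, against 16.5%). None fell in either. The 9 were Oasl2, Rsad2, Samd9l, Parp14, Ifih1, Dtx3l, Eif2ak2, Dhx58 and Adar, and the 2 were Rsad2 and Dtx3l. The medians were 0.53 and 0.38, against 0.09 for all genes in both. At week 16, 5 genes passed in both treatments: Adar, Dtx3l, Oasl2, Parp14 and Rsad2, which are 5 of the 7 control calls and 5 of the 9 calls after anti-CD40L. Among the 32 genes tested, only Rsad2 had all treated arrays of week 16 above those of week 8 (19.1% of all genes), and the untested Mx1 did as well, at 4.94 to 5.93 against 4.49 to 4.65; at week 24 this held for Rsad2, Adar and Dtx3l (12.4% of all genes), and the reverse for none (4.64% of all genes).

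**Figure D5:**
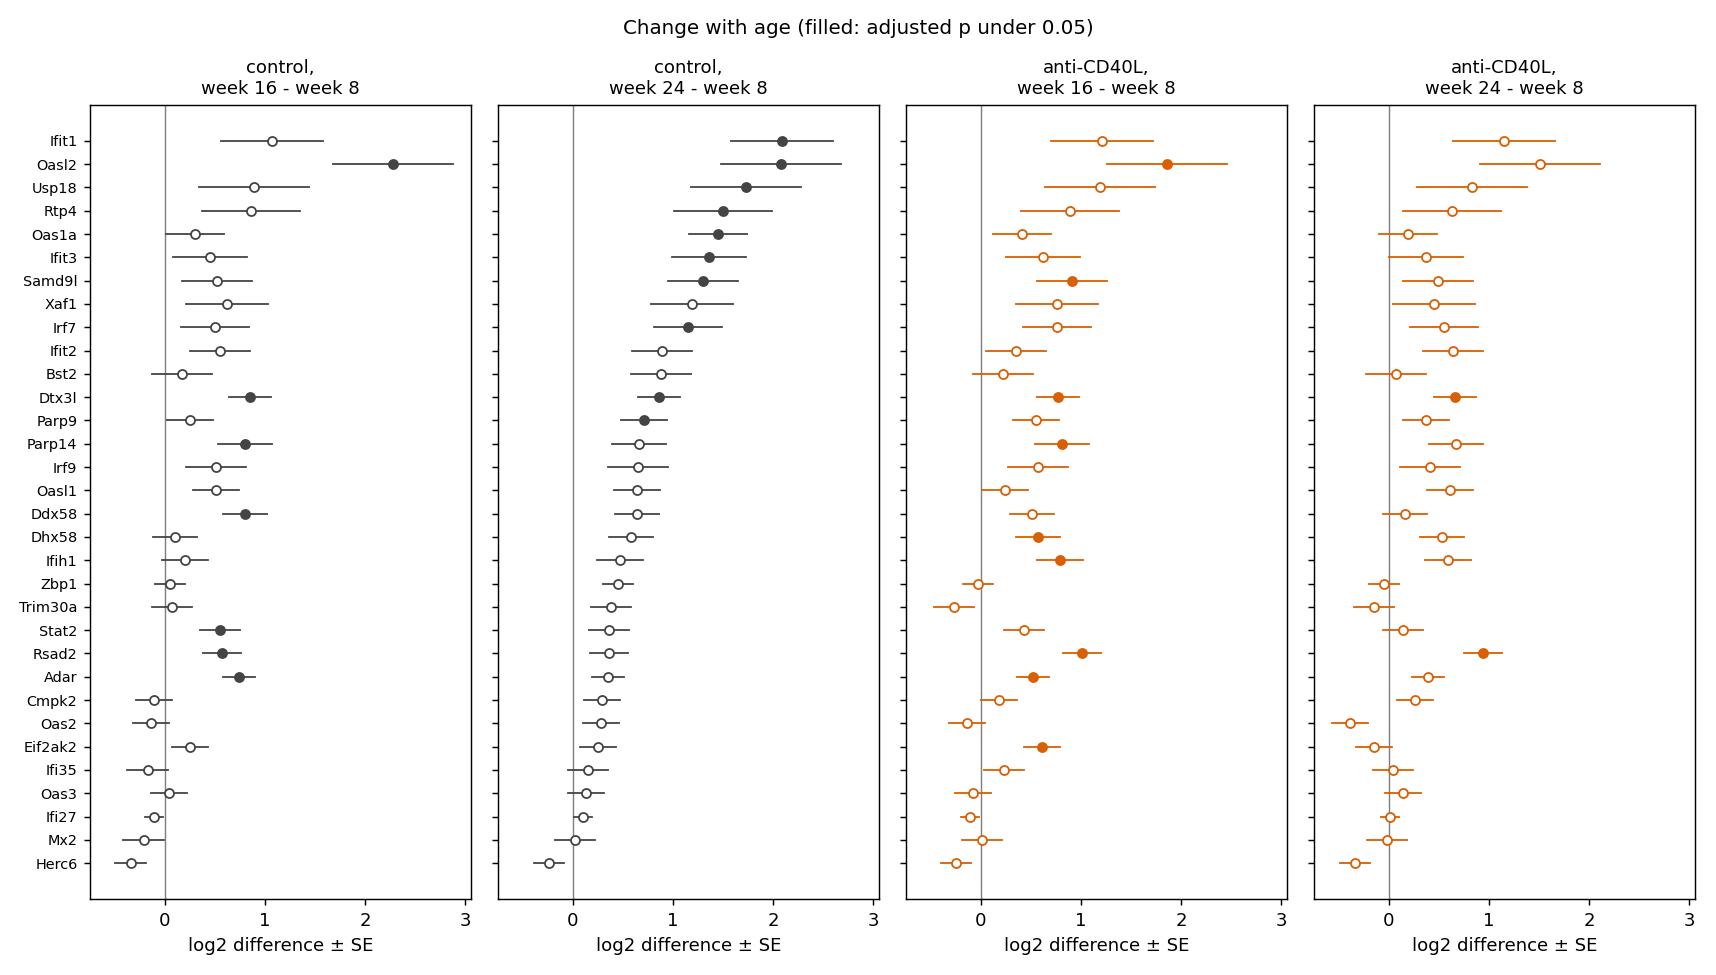
Change in log2 level from week 8, with its standard error, for the 32 genes tested in controls (dark grey) and after anti-CD40L (orange) at weeks 16 and 24; a filled point has an adjusted p under 0.05 in limma. In controls at week 24, 31 of 32 points lie right of 0 and 10 are filled, and after anti-CD40L at week 24 Rsad2 and Dtx3l are filled.

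The sensors Ifih1 and Dhx58 passed only in treated glands at week 16, where the difference between treatments was not shown. Controls had Ifih1 levels of 7.95, 7.85, 8.58, 7.90 and 7.47 at week 8, 8.45, 7.91, 8.18, 8.18 and 8.05 at week 16, and 8.25, 8.68, 8.50, 7.91 and 8.76 at week 24. Treated glands had Ifih1 levels of 6.95, 7.41, 7.43, 7.45 and 7.89 at week 8, 8.67, 7.82, 7.89, 9.07 and 7.65 at week 16, and 7.76, 8.26, 7.79, 7.93 and 8.34 at week 24. Ifih1 rose by 0.79 ± 0.23 (adjusted p = 0.0103) after anti-CD40L from week 8 arrays of which 4 of 5 were below all controls of that age, and the change of the treatment effect was 0.59 ± 0.33 (adjusted p = 0.439). Controls had Dhx58 levels of 5.70, 6.18, 6.68, 6.24 and 6.28 at week 8, 6.71, 5.96, 5.92, 6.58 and 6.43 at week 16, and 6.68, 7.23, 6.80, 6.38 and 6.90 at week 24. Treated glands had Dhx58 levels of 5.75, 6.03, 5.83, 6.21 and 5.87 at week 8, 6.70, 5.95, 6.50, 7.33 and 6.04 at week 16, and 6.39, 6.78, 6.02, 6.35 and 6.82 at week 24. Dhx58, the RIG-I-like regulator LGP2, rose by 0.57 ± 0.22 (adjusted p = 0.0433), lost without any 1 of 6 arrays (highest adjusted p = 0.175, without anti-CD40L week 16 replicate 4).

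Eif2ak2 rose by 0.61 ± 0.18 (adjusted p = 0.0125) after anti-CD40L at week 16, Oasl2 by 1.86 ± 0.60 (adjusted p = 0.0179) and Samd9l by 0.91 ± 0.35 (adjusted p = 0.0417). Leaving out anti-CD40L week 16 replicate 4 ended all 3 calls, with adjusted p = 0.0558 for Eif2ak2 and 0.0731 for Oasl2. The call of Samd9l was lost without any 1 of 5 arrays, with a highest adjusted p of 0.156 without anti-CD40L week 8 replicate 1, whose level of 5.77 was the lowest of its group. The week 16 count of 9 was 4 without anti-CD40L week 16 replicate 1, 3 without replicate 4 and 14 without replicate 5, and 2 without the 5 arrays of low correlation. The number of all genes called went from 4750 to 4292, 3560, 3787 and 2476 in the same order. The week 24 count of 2 was 8 (7 higher, 1 lower) without anti-CD40L week 8 replicate 5, 6 without anti-CD40L week 16 replicate 4, 5 without control week 24 replicate 1, and 1 without each of anti-CD40L week 8 replicates 1, 3 and 4 and anti-CD40L week 24 replicates 4 and 5. It was also 1 without the 5 arrays of low correlation. The number of all genes called went from 3074 to 3793 without anti-CD40L week 8 replicate 5, and to between 1110 and 2639 where the listed count was 1. In the treated glands none of the 8 B cell genes rose from week 8 to week 16 or 24, and 1 fell in each (12.5%). Of all genes 12.5% fell by week 16 and 7.12% by week 24. Of 8 plasma cell genes 3 rose at both ages (37.5%, against 24.1% and 16.5% of all genes), with a largest rise of 3.52. Of 15 macrophage and dendritic cell genes 2 rose (13.3%) and 1 fell by week 16, and 1 rose by week 24 (6.67%), lower shares than in all genes. Of 9 T cell genes 1 fell by week 16 (11.1%) and 2 by week 24 (22.2%), and none rose. Amy1 was 13.18 to 13.7 in treated glands at week 8, 7.34 to 12.41 at week 16 and 7.34 to 13.43 at week 24, and with Amy1 as a covariate the counts of 9 and 2 were 6 and 1. Whether changes in these cell types had a part in the rises of the listed genes was not tested.

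The other listed genes passed in no comparison. Ifit2 ranged from 4.51 to 6.53 over the 30 arrays, Oasl1 from 5.06 to 6.56 and Bst2 from 7.59 to 9.63, and in each of them all 4 changes with age were above 0. Oas2 and Oas3, the larger oligoadenylate synthetases, ranged from 6.44 to 7.62 and 5.45 to 6.6. Mx2, a dynamin-like antiviral GTPase, ranged from 4.99 to 6.37, and the untested Mx1 from 4.01 to 5.93. Cmpk2, a mitochondrial nucleotide kinase, ranged from 4.80 to 6.40 and Herc6 from 6.12 to 7.07. Ifi27, a small membrane protein, ranged from 11.53 to 12.21, the narrowest range of the 33. In total 19 of the 32 genes passed in at least 1 of the 9 comparisons.

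Genes upstream of the signal were examined from lists of pathway genes. Of 20 genes for type I and type III interferons 9 had a probe set and 3 were tested, the other 6 lying under the filter. Ifnz, a mouse type I interferon also called limitin, was lower after anti-CD40L at week 24 (-1 ± 0.29, adjusted p = 0.0306), and the tested Ifna1 and Ifna9 gave -0.20 ± 0.16 and -0.15 ± 0.12. Ifnz also fell from week 8 to week 16, by 1.06 in controls, where 18.1% of all genes fell, and by 1.05 after anti-CD40L. The 3 tested genes all fell in the latter comparison, against 12.5% of all genes. By week 24 after anti-CD40L 2 of the 3 fell, against 7.12% of all genes, and in controls 0 did, against 4.01%. None of 7 receptor and kinase genes passed in a treatment comparison; the largest difference at each age was Ifnar2, a receptor chain, at week 8 (0.44 ± 0.16, adjusted p = 0.249), Ifnar1, the other chain, at week 16 (-0.34 ± 0.09, adjusted p = 0.0531) and Stat3 at week 24 (0.50 ± 0.20, adjusted p = 0.1). Of these 7, 3 (42.9%) rose in controls by week 16, against 28.4% of all genes, and 3 by week 24, against 8.49%. Among 19 genes of nucleic acid sensing, Irf8 fell and Traf6, an adaptor of Toll-like receptor signals, rose (0.33 ± 0.10, adjusted p = 0.0415) after anti-CD40L at week 24. Each is 5.26% of the list, where 3.49% of all genes fell and 5.96% rose. None of 15 genes in a mixed list of negative regulators and nucleases passed in a treatment comparison. The largest difference was that of Isg20, a nuclease, at week 16 (1.22 ± 0.58, adjusted p = 0.33).

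A further list of 72 interferon stimulated genes, 52 of them tested and several also answering interferon gamma, was set beside the 35. At week 24 after anti-CD40L 3 fell (5.77%, against 3.49% of all genes) and 1 rose (1.92%, against 5.96%). The median was -0.16, against 0.03 for all genes, and 36 of 52 lay below 0 (69.2%, against 45.8% of all genes). Slfn2, a schlafen protein that keeps T cells quiescent, fell by 1.5 ± 0.40 (adjusted p = 0.0229), the GTPase Ifi47 by 1.32 ± 0.37 (adjusted p = 0.0264) and Epsti1 by 0.94 ± 0.25 (adjusted p = 0.022), while Trim56, a ubiquitin ligase, rose by 0.94 ± 0.29 (adjusted p = 0.0406). At week 16 Slfn9 alone rose (0.46 ± 0.11, adjusted p = 0.0356), 1.92% of the list against 1.31% of all genes. At week 8 none passed, against 0.0692% of all genes. In controls 19 rose and 2 fell by week 16 (36.5% higher, against 28.4% of all genes), and 19 rose and none fell by week 24 (36.5%, against 8.49%). After anti-CD40L 12 rose and 1 fell by week 16 (23.1% higher, against 24.1% of all genes), and 10 rose and 1 fell by week 24 (19.2%, against 16.5%). Ly6e, which restricts the entry of several viruses, rose by 2.02 ± 0.42 in controls at week 16 (adjusted p = 0.000612) and by 1.84 ± 0.42 at week 24 (adjusted p = 0.00682).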

How the data were processed

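RNA of whole salivary gland from 30 samples was measured on Affymetrix whole-genome mouse arrays. The deposited values are log2 intensities per probe set, and per the submitters' processing notes limma was used. The sources used here do not give the array normalization or the version of that limma. Probe sets were named through the platform annotation: with 64 control probe sets left out, 34945 of the 45101 named 1 gene. Several genes were named by 932 and none by 9211, counts from which control probe sets were not removed. All 33 listed genes with a probe set matched RefSeq by Entrez identifier and symbol. A gene was tested if its probe set was above the median of its array in at least 5 arrays (12998 genes). limma 3.58.1 in R 4.3.3 fitted 1 mean per group over all 30 arrays, with empirical Bayes variances, 9 contrasts, and Benjamini-Hochberg adjustment over all genes tested in each contrast. A gene was called at an adjusted p under 0.05, and intervals are 95%. The procedure was tested on simulated data. No file held a column of other samples.

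The members and the lists were chosen with earlier results of these data known. Every listed gene is accounted for by name. Values in every array are given for those called in any contrast, the 4 largest differences in each treatment contrast, and Irf7, Irf9 and Stat2. Of other lists, genes were named from those called, at most the 4 largest, and at most 2 per treatment contrast of a list with none called. Not every called gene is named. B cell, T cell and plasma cell genes, among others, are given only as counts or mean levels. Alternatives changed the normalization, filter, choice of probe sets, array weights, arrays fitted, replicate block and covariates, and left out each array in turn. Leaving out the 5 arrays of low correlation was added after the data were seen. Promoter windows came from RefSeq, build GRCm38.p6.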

Additional observations from a re-analysis of the deposited data

Results flagged for a closer look

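Single arrays far from the other 4 of their group were found in 8 of the 198 groups of 5 values (33 genes in 6 groups), by the gap to the nearest value over the whole range against Dixon's critical value of 0.71. Chance flags about 1 in 20 such groups. Of the 8, 3 were high values of control week 8 replicate 3: Rsad2 at 8.20 (next highest 7.54), Parp14 at 6.66 (6.22) and Ifi27 at 12.15 (11.95). That array also had the highest mean of the 33 genes in its group, 7.45, and was 1 of the 5 arrays of low correlation. Ddx58 was low in control week 8 replicate 4, at 6.77 (next lowest 7.49), another array of low correlation. After anti-CD40L at week 8, Ifit1 was high in replicate 5, at 6.78 (next highest 5.64), Mx2 was low in replicate 3, at 4.99 (next lowest 5.90), and Samd9l was low in replicate 1, at 5.77 (next lowest 6.89). Ifi27 was low in control week 24 replicate 4, at 11.70 (next lowest 12.07).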

How the results depend on the processing

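Over the alternatives, no listed gene was called at week 8 or 16 between treatments or in the 2 changes of the treatment effect. At week 24 between treatments the count of 3 was 6 with quantile normalization, 5 with Amy1 as a covariate, 1 with no filter, 1 with only the arrays compared, 1 with the replicate block, and 0 with the 3′ minus 5′ difference as a covariate. In controls the week 16 count of 7 higher was 1 with the 3′ minus 5′ covariate (0 higher, 1 lower). The week 24 count of 10 higher was 16 of 30 tested with the median over probe sets (15 higher, 1 lower), 0 with only the arrays compared and 2 with the 3′ minus 5′ covariate. After anti-CD40L the week 16 count of 9 was 4 with the 3′ minus 5′ covariate and 2 without the 5 arrays of low correlation. The week 24 count of 2 was 10 with only the arrays compared (9 higher, 1 lower) and 1 with the 3′ minus 5′ covariate, with the Amy1 covariate and without the 5 arrays of low correlation. Leaving out 1 array gave 1 to 9 calls at week 24 between treatments, 5 to 9 and 3 to 18 in controls at weeks 16 and 24, 3 to 14 and 1 to 8 after anti-CD40L, and 0 in each of the other comparisons. Counts over all genes moved with the settings too, from 1229 to 23 at week 24 between treatments with the 3′ minus 5′ covariate. The cause of these changes was not tested. The median difference at week 24 between treatments lay between -0.50 and -0.30 throughout, and its sign at weeks 8 and 16 varied, -0.18 to 0.08 and -0.15 to 0.20. Of the values of single genes called in the main fit, 1 reversed: Ddx58 in controls at week 16, -0.32 with the median over probe sets. A further 21 values, of genes followed without being called in that comparison, changed sign. Quantile normalization moved the median of all genes by over 0.1 in 3 age comparisons, from 0.06 to -0.06 in controls at week 16, and from 0.09 to -0.05 and -0.02 after anti-CD40L at weeks 16 and 24. The labels do not say whether replicate numbers pair the samples. Over all genes tested, 6 of 35 pairs of same-numbered arrays correlated above 0.1 in their deviations (-0.63 to 0.4). Only 3 correlated best with their own number. In the listed genes, replicates 1 and 4 were most often the 2 highest in both week 16 groups (23 and 30 of 33 genes). The same held for replicates 2 and 5 in both week 24 groups (26 and 20 of 33). A pairing was therefore neither shown nor excluded. Signal near background limited Mx1, which was above its array's median in only 2 arrays.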
